A study of Mus musculus with 20 samples.

Results

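The nuclear genes for the structural subunits of respiratory chain complexes I, III and IV were followed in mouse pre-B cells. A probe set, the group of probes by which the array reads a transcript, was taken when its annotation named exactly 1 gene and that gene's symbol began with Ndufa, Ndufb, Ndufc, Ndufs, Ndufv, Uqcr, Cox4, Cox5, Cox6, Cox7 or Cox8, with the assembly factors named Ndufaf left out. The symbols alone chose the members. Of 44200 probe sets on the array, 34294 named 1 gene and 129 met the rule, and these stood for 61 genes. Complex I had 76 probe sets for 34 genes, complex III had 16 for 8 genes and complex IV had 37 for 19 genes, with Ndufa4 and its paralogue Ndufa4l2 placed in complex IV. More than 1 probe set was available for 36 genes. Another 10 probe sets named several genes of which at least 1 fitted the rule, and they were not counted as members.

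Complexes I, III and IV pass electrons from NADH to oxygen in the inner mitochondrial membrane and pump protons as they do so. Complex I takes electrons from NADH through a flavin and a chain of iron-sulfur clusters, complex III passes them from ubiquinol to cytochrome c, and complex IV reduces oxygen. Each complex joins a catalytic core, partly encoded by mitochondrial DNA, to nuclear-encoded accessory subunits, and some complex IV subunits exist in tissue-restricted isoforms.

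The samples were v-abl-transformed pre-B cell lines, which are B lymphocyte precursors made to grow by a viral oncogene, and pre-B cells purified from bone marrow. All lines had been kept for 48 h in 3 uM STI571, an inhibitor of the Abl kinase that arrests such cells and lets them express the RAG recombinase. The groups were 3 samples of Artemis-deficient lines that express an IkB of dominant negative form, an inhibitor of NF-kB (IkB-DN lines), 2 Artemis- and ATM-deficient lines with 2 arrays each, 3 Artemis-deficient lines, 3 wild type lines and 3 RAG-2-deficient lines. RAG-2-deficient cells make no RAG breaks, Artemis-deficient cells do not open the hairpin ends of those breaks, and ATM is a kinase that responds to them. The bone marrow groups were 2 Artemis-deficient and 2 RAG-1-deficient mice, both carrying an IgH transgene, with RNA taken directly after purification. The study took the RAG-deficient samples as controls in each set.

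Several limits of these samples bear on what follows. The titles of the IkB-DN samples share a name and differ in a number, followed in 1 of them by a letter, so they may be cultures of the same line. Their correlations with each other across kept probe sets were 0.976 to 0.983, against 0.902 to 0.947 between samples of the other groups of lines and 0.982 and 0.984 between the paired arrays of a single Artemis- and ATM-deficient line. The spread among the IkB-DN samples may therefore be one between cultures. The fit shares 1 estimate of the spread over the 5 groups of lines. P values of every comparison of lines, also those without the IkB-DN lines, thus rest on it in part. In comparisons with the IkB-DN lines, cultures may also be counted as separate lines. The titles of the RAG-2-deficient samples contain the letters Bcl, which no label explains, and the title of wild type replicate 3 begins with ATM although its label says wild type. An array's median signal was 26.8 to 27.7 for lines and 46.9 to 47.8 for marrow, and separate scaling was taken from these medians alone, so levels were compared only within the lines and within the marrow. All 8 pre-B markers were kept in the lines, whereas none of the 3 dendritic and none of the 3 erythroid markers were. Of 7 neutrophil and monocyte markers 4 were kept, and all 7 together had summed signals of 635 to 770 in IkB-DN, 229 to 893 in Artemis- and ATM-deficient, 137 to 353 in Artemis-deficient, 126 to 361 in wild type and 104 to 167 in RAG-2-deficient lines, while Mpo, S100a8 and S100a9 stayed below the filter on low signals. In the marrow all 8 pre-B, all 7 neutrophil and monocyte and all 3 dendritic markers were kept.

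Levels are log2 of the signal plus a pseudocount, and a probe set was kept if its signal was at or above the array's median in 2 or more samples. In the lines 110 member probe sets for 55 genes were kept, and in the marrow 107 for 56 genes. The genes without a kept probe set in the lines were Ndufb4 and the isoforms Cox6b2, Cox7a1, Cox7b2, Cox8b and Ndufa4l2. The members were brighter than most probe sets and varied less between replicates. The median standard deviation (SD) of a member within a group was 0.10 to 0.14 over the 5 groups of lines, against 0.16 to 0.27 for all kept probe sets, and the members' median level of 9.12 was above the 6.66 of all kept probe sets. Between the lowest and the highest group mean a member spanned a median of 0.38, against 0.54 for all. The span was under 0.5 for 74 members and at least 1 for 8, with the highest, 1.17, at Uqcr10 probe set 1434340_at.

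**Figure D1:**
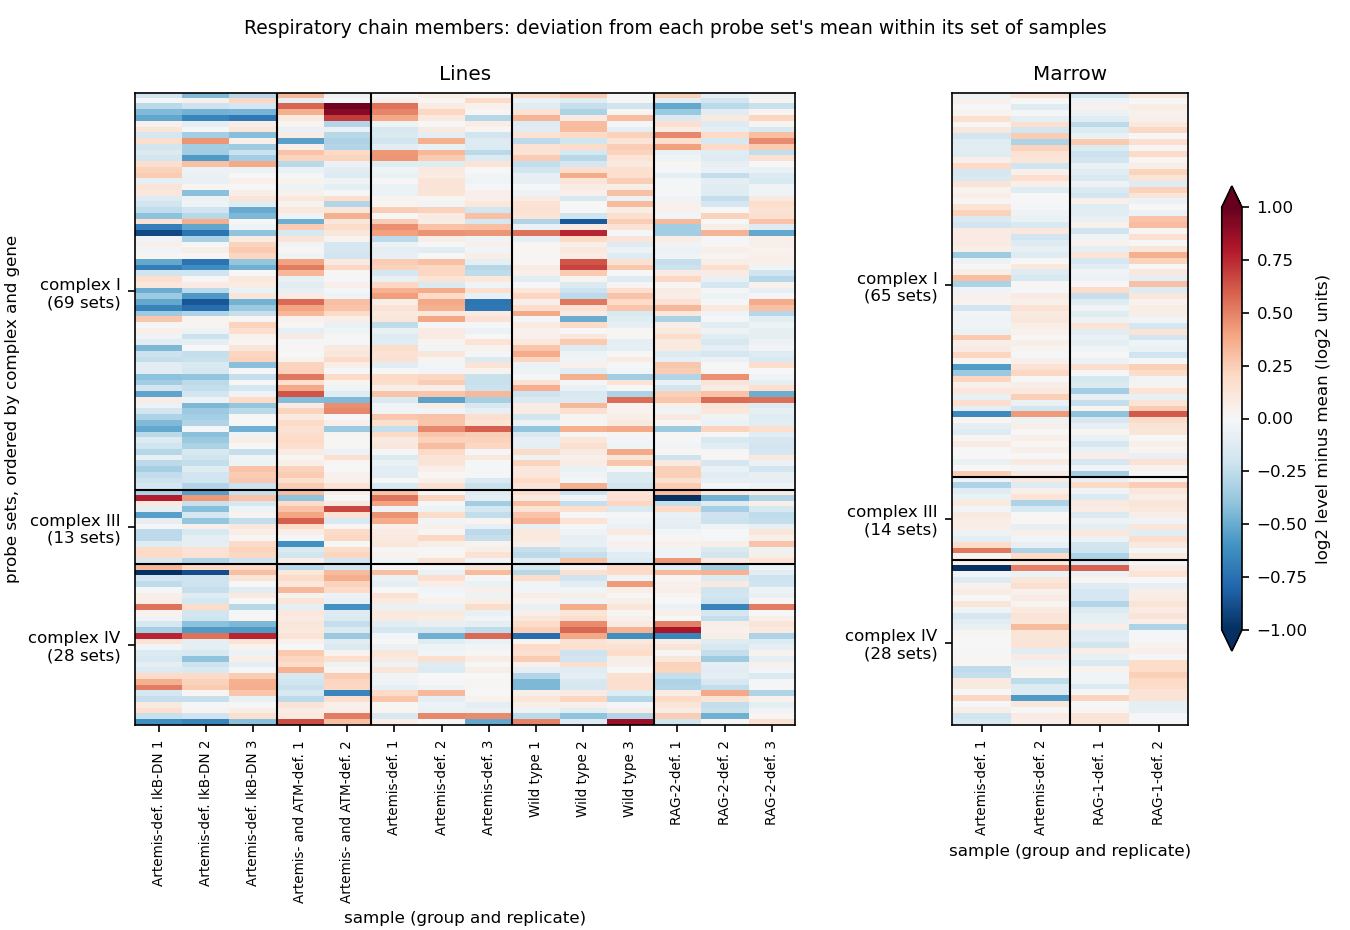
Deviation of each kept member probe set (down the page, 110 in the lines and 107 in the marrow) from its own mean within the lines or within the marrow, in log2 units, for every sample (across). IkB-DN replicates 1 and 2 are lower at most members, by medians of -0.14 and -0.19, whereas the other samples have medians between -0.07 and 0.10.

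By sample, the median deviation of the 110 members from their means over the lines was -0.14, -0.19 and 0.00 in IkB-DN, 0.10 and 0.02 in Artemis- and ATM-deficient, 0.01, 0.07 and -0.01 in Artemis-deficient, 0.05, 0.03 and 0.05 in wild type and 0.03, -0.07 and -0.04 in RAG-2-deficient lines. The same median over all kept probe sets was between 0.00 and 0.02 in every sample. IkB-DN replicates 1 and 2 were thus the lowest samples, with 78 and 87 of 110 members below their mean, while replicate 3, with 56, lay among the other groups.

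The F test in limma asks whether any of the 5 groups of lines differs. It called 10 of 110 members (9.09%) at an adjusted p below 0.05, against 9.38% of all 21796 probe sets tested, so the members were called at about the background rate. Complex I held 9 of the 10 (of 69 tested), complex IV held 1 of 28 and complex III none of 13, although 5 complex III probe sets had an unadjusted p below 0.05. In all, 37 members had an unadjusted p below 0.05. The share of all probe sets below this unadjusted threshold was not counted for the F test. No excess of members can therefore be read from these unadjusted counts. The calls fell on 7 genes, Ndufa12, Ndufa3, Ndufb1, Ndufb2, Ndufs5, Ndufs7 and Cox6a1. With the IkB-DN lines left out of the fit no member was called, and leaving out 1 IkB-DN sample at a time left 3, 1 and 1 calls, in the order of their replicates.

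**Figure D2:**
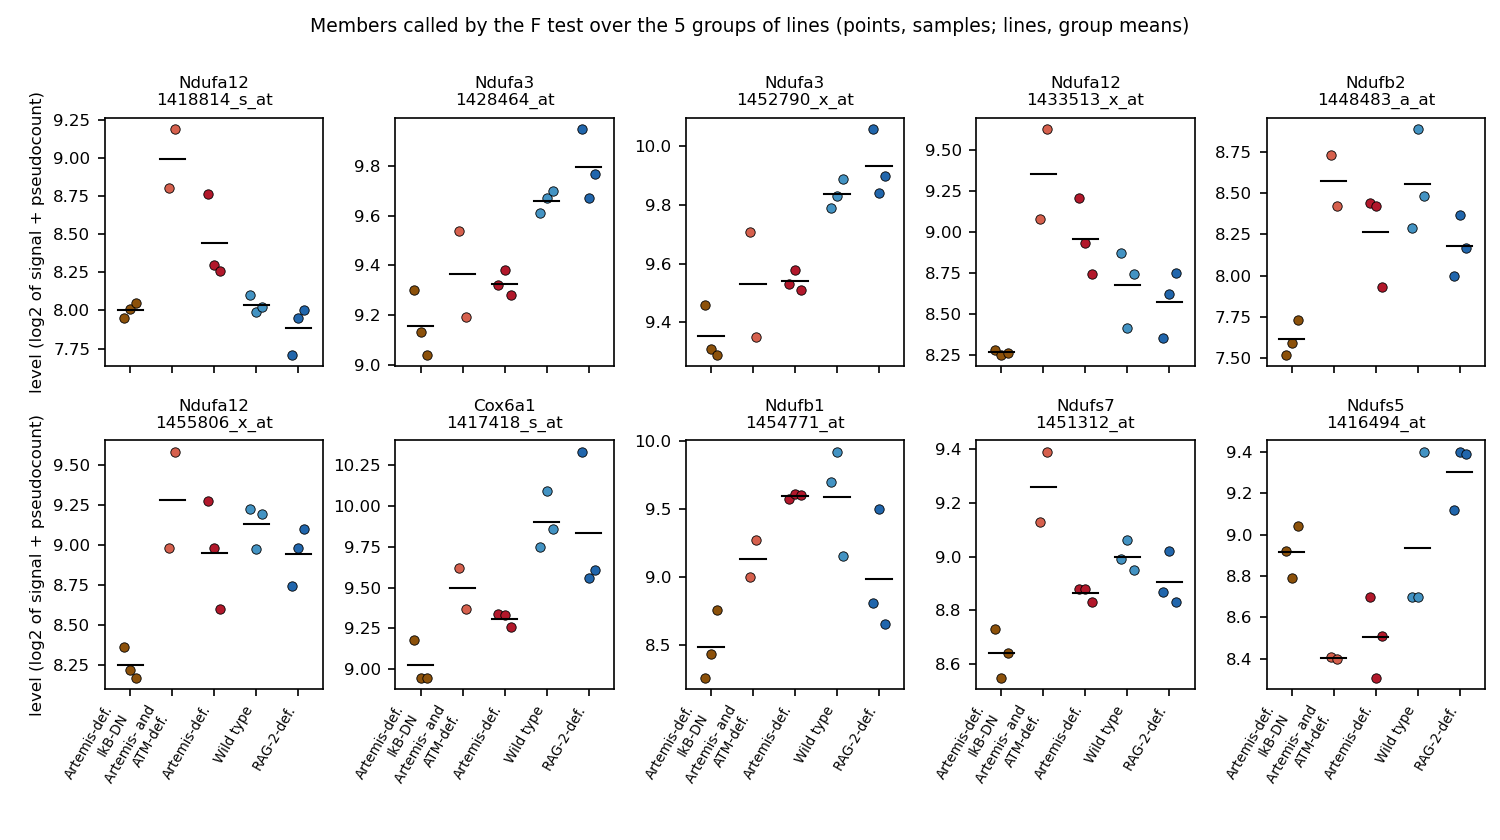
Levels (log2 of signal plus pseudocount) of the 10 member probe sets called by the F test, by group of lines, with a point for each sample and a bar at each group mean. The IkB-DN samples are below all other line samples at Ndufb2, Cox6a1, Ndufs7 and at Ndufa12 sets 1433513_x_at and 1455806_x_at, and the RAG-2-deficient samples are among the highest at Ndufa3 and Ndufs5.

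Ndufa12, an accessory subunit of the hydrophilic arm of complex I, gave the smallest p. Its probe set 1418814_s_at read 7.95, 8.01 and 8.05 in IkB-DN, 8.80 and 9.19 in Artemis- and ATM-deficient, 8.76, 8.30 and 8.26 in Artemis-deficient, 8.10, 7.99 and 8.02 in wild type and 7.71, 7.95 and 8.0 in RAG-2-deficient lines (F = 13.8, limma adjusted p = 0.0101). The 5 samples deficient in Artemis that lacked the IkB construct were above the other 9, and only the Artemis- and ATM-deficient lines passed a pairwise test. They were 1.10 ± 0.17 (SE) higher than the RAG-2-deficient lines, or 2.15-fold (limma adjusted p = 0.0131), with no overlap. This was the only member called in that comparison, at 0.909% of members against 0.693% of all probe sets called in either direction and 0.3% called higher, and 11 members (10%) had an unadjusted p below 0.05, against 11.7% of all. The call was lost without Artemis- and ATM-deficient replicate 2 or without RAG-2-deficient replicate 1, where the difference was 0.91 to 1.30 over all samples left out in turn, and adjusted p-values reached 0.159. The other kept Ndufa12 sets, 1433513_x_at and 1455806_x_at, differed from RAG-2-deficient lines by 0.78 ± 0.20 (limma adjusted p = 0.113) and 0.34.

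Probe sets whose names end in _s_at or _x_at can also read related transcripts, so the Ndufa12 values carry that limit. Set 1455806_x_at read 8.36, 8.22 and 8.17 in IkB-DN lines, against 8.74, 8.98 and 9.10 in RAG-2-deficient lines, and fell by 0.69 on the log2 scale (SE 0.19, limma adjusted p = 0.0393). This call was lost in all 6 cases when 1 sample was left out. In the same comparison 1433513_x_at differed by -0.31 and 1418814_s_at by 0.12, so the 3 sets did not share a sign. Against the Artemis-deficient lines all 3 were lower in the IkB-DN lines without overlap, by -0.44 to -0.70, and none was called.

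Ndufa3, a small accessory subunit of complex I, was on average highest in the lines with an intact Artemis gene at sets 1428464_at and 1452790_x_at. Set 1428464_at read 9.30, 9.13 and 9.04 in IkB-DN, 9.54 and 9.19 in Artemis- and ATM-deficient, 9.32, 9.38 and 9.28 in Artemis-deficient, 9.61, 9.67 and 9.70 in wild type and 9.95, 9.67 and 9.77 in RAG-2-deficient lines. All 8 samples deficient in Artemis were below all 6 samples with Artemis. The IkB-DN lines fell below the RAG-2-deficient lines by 0.64 (SE 0.12, limma adjusted p = 0.00655), and set 1452790_x_at fell by 0.58 (SE 0.11, limma adjusted p = 0.0071). These were the only members of that comparison whose calls held whichever sample was left out. The Artemis-deficient lines differed from the RAG-2-deficient lines by -0.47 ± 0.12 and -0.39 ± 0.11 at these sets and from the wild type lines by -0.34 ± 0.12 and -0.30 ± 0.11, without overlap and without a call (limma adjusted p-values 0.0805 to 0.27). The remaining set, 1430149_at, read 5.79, 6.05 and 5.66 in IkB-DN lines, against 5.78, 5.45 and 6.08 in RAG-2-deficient lines, which overlapped.

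Cox6a1 is the widely expressed form of complex IV subunit 6a. Set 1417418_s_at read 9.18, 8.95 and 8.95 in IkB-DN, 9.62 and 9.37 in Artemis- and ATM-deficient, 9.34, 9.33 and 9.26 in Artemis-deficient, 9.75, 10.09 and 9.86 in wild type and 10.33, 9.56 and 9.61 in RAG-2-deficient lines. Except for Artemis- and ATM-deficient replicate 1, whose 9.62 passed 2 RAG-2-deficient samples, every Artemis-deficient sample was below every sample with Artemis. In IkB-DN lines the set fell by 0.81 (SE 0.18, limma adjusted p = 0.0176) relative to RAG-2-deficient lines, and set 1417417_a_at fell by 0.57 (SE 0.14, limma adjusted p = 0.025). Leaving out IkB-DN or RAG-2-deficient samples in turn gave -0.95 to -0.56 for the 1417418_s_at difference, and its call was lost in 2 of 6 cases.

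Ndufa12, Ndufa3 and Cox6a1 are the genes called at more than 1 probe set, and their promoters are shown for that reason. RefSeq promoters (mouse build GRCm38.p6, 250 bases before to 50 after the start) were matched by symbol for 49 of the 61 genes. They were searched on both strands for sites of 3 factors known to act on respiratory chain genes, NRF1 (GCGCA and GCGC with 1 base of any kind between them), GABP (CCGGAAG) and YY1 (AAGATGGC), where the last 2 can overlap in the letters AAG. Ndufa12 is at chr10:94198785-94199084 on the plus strand, Ndufa3 at chr7:3617123-3617422 on the plus strand and Cox6a1 at chr5:115348909-115349208 on the minus strand. Each is written 5′ to 3′ on the gene's strand, with matches in capitals.
Ndufa12: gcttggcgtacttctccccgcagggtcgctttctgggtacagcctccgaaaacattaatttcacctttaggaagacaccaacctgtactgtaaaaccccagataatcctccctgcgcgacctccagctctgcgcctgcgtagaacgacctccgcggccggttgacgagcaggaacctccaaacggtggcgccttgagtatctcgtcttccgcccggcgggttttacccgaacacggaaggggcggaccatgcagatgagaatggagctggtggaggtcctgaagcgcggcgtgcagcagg
Ndufa3: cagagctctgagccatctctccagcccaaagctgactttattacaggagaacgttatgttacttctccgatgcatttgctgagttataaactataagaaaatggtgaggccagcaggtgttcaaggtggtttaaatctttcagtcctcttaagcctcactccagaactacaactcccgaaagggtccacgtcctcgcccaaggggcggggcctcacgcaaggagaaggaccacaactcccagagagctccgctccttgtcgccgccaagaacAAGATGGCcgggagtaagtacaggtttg
Cox6a1: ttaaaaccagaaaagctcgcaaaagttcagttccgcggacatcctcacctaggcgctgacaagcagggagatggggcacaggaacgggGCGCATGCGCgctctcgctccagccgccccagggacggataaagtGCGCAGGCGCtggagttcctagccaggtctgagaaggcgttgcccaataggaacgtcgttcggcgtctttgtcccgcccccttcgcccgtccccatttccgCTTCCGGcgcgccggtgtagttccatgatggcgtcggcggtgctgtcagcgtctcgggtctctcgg
The Cox6a1 promoter had 2 NRF1 matches and 1 GABP match, which lay on the opposite strand, the Ndufa3 promoter had 1 YY1 match, and none of the 3 strings was in the Ndufa12 window. NRF1 letters were in 15.7% of the 51 member promoters and in 4.6% of all 32851 promoters of the same length, GABP letters in 17.6% and 8.86%, and YY1 letters in 11.8% and 2.75%. Median GC content was 57.3% in member promoters and 52.7% in all. These shares describe the windows, and no motif of the 3 was common to the 3 promoters shown.

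Ndufb1, an accessory subunit of the membrane arm of complex I, read 8.26, 8.43 and 8.76 in IkB-DN, 9.0 and 9.27 in Artemis- and ATM-deficient, 9.57, 9.61 and 9.60 in Artemis-deficient, 9.70, 9.92 and 9.15 in wild type and 8.81, 9.50 and 8.65 in RAG-2-deficient lines. The Artemis-deficient samples lay close together and above all IkB-DN samples, while the RAG-2-deficient samples were below all Artemis-deficient samples and overlapped the IkB-DN samples. Ndufb1 fell by 1.11 in IkB-DN lines relative to Artemis-deficient lines (SE 0.23, 2.16-fold, limma adjusted p = 0.0337). Ndufs8, which carries iron-sulfur clusters in the complex I core, also fell there at set 1434213_x_at, by 0.49 (SE 0.11, limma adjusted p = 0.0426), with levels of 9.07, 8.92 and 9.29 in IkB-DN and 9.54, 9.62 and 9.59 in Artemis-deficient lines. Both calls were lost in 5 of 6 cases when 1 sample was left out.

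Those were the 2 members called between the IkB-DN and the Artemis-deficient lines, whose labels differ by the IkB construct (1.82% of members, against 2.02% of all probe sets). Both were lower, as were 0.994% of all probe sets. If the IkB-DN samples are cultures of a single line, the construct and that line cannot be told apart in this comparison. Below the threshold the members leaned downward. Of 110 members 29 had a positive difference and 81 a negative one (26.4% positive), with a median of -0.12, against 50.1% positive and a median of 0.00 over all 21735 probe sets. Unadjusted p-values below 0.05 were found for 29 members (26.4%), against 18.7% of all, and 32 members (29.1%) were lower in all 3 IkB-DN samples than in all 3 Artemis-deficient samples, against 14.2% of all probe sets. The lean was largest in complex I, with a median of -0.17 over 69 probe sets (21.7% positive). Complex III (-0.09, 13 sets, 30.8% positive) and complex IV (-0.11, 28 sets, 35.7% positive) leaned downward too. It was not particular to the members. With 1 probe set per gene, medians were -0.19 over 24 genes of mitochondrial transcription and biogenesis and -0.13 over 4 complex II genes. They were -0.09 over 40 assembly factors, -0.06 over 12 citric acid cycle genes, -0.01 over 19 ATP synthase genes and 0.04 over 16 glycolysis genes. All 16 probe sets of the 6 measured core subunits of complex I were negative (median -0.24), from -0.61 at Ndufs8 set 1434212_at to -0.02 at Ndufv2. Probe sets of a gene share their transcript, and 6 of the 16 read Ndufs8. The median over members stayed between -0.17 and -0.08 as samples were left out, but the count of calls was 1 without IkB-DN replicate 3, 12 without Artemis-deficient replicate 3 and 0 without any other sample of either group. Marker genes were also compared in these samples. The 7 neutrophil and monocyte markers, of which 4 were kept, summed to 635 to 770 in IkB-DN and 137 to 353 in Artemis-deficient lines. All 4 kept were higher in IkB-DN lines with an unadjusted p below 0.05 in limma, and 1 was called. The 8 pre-B markers summed to 30000 to 30900 in IkB-DN and 23500 to 28100 in Artemis-deficient lines. None of these 8 was called or had an unadjusted p below 0.05 in limma, and 6 were higher in IkB-DN lines. The part of either set of markers in the members' result was not tested.

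**Figure D3:**
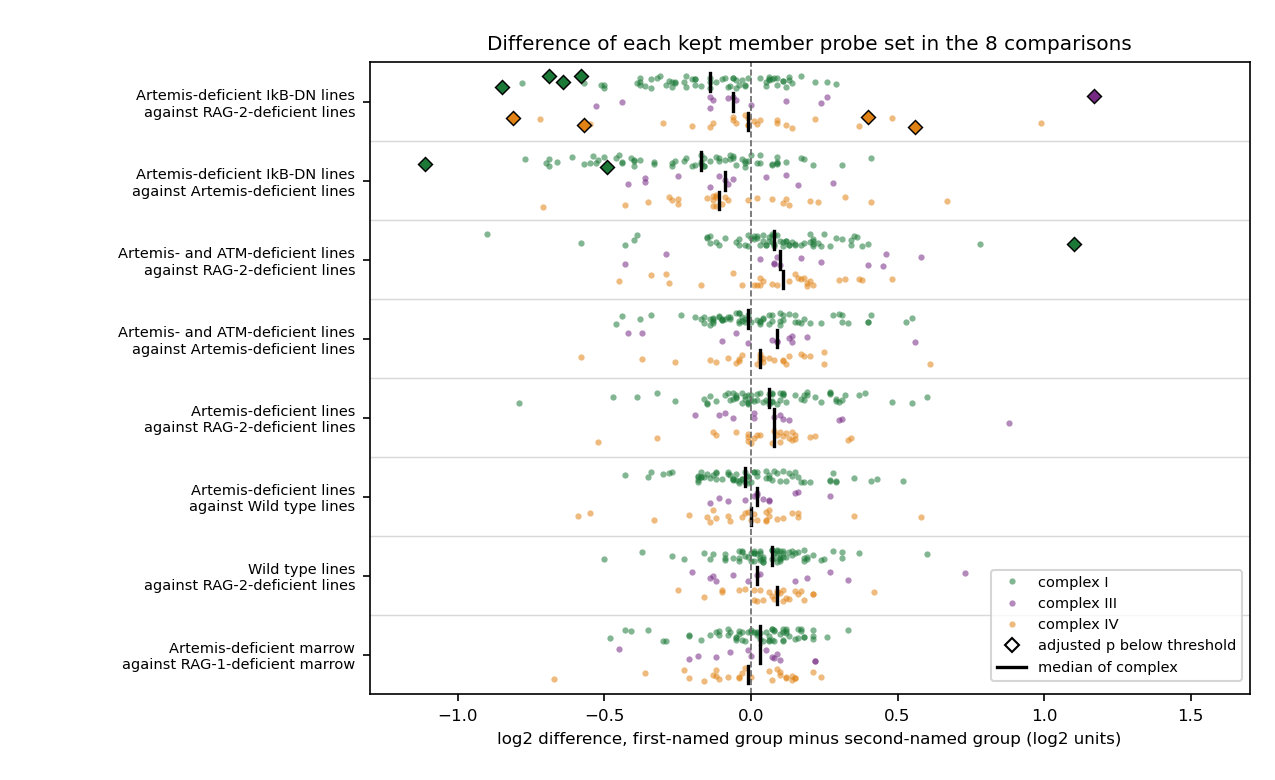
Log2 difference of each kept member probe set in the 8 comparisons, first-named group minus second-named group, in a row per complex with a bar at the complex's median and diamonds for adjusted p below 0.05. The complex I medians are -0.14 and -0.17 in the comparisons with the IkB-DN lines and between -0.02 and 0.08 in the other 6.

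Against the RAG-2-deficient lines, the IkB-DN lines differed at 9 members (8.18%, against 9.85% of all 21667 probe sets), of which 6 were lower and 3 higher (of all probe sets, 4.86% were lower and 4.99% higher). An unadjusted p below 0.05 was found for 27 members (24.5%), against 26.2% of all. Leaving out a sample gave 4, 3 and 4 calls without IkB-DN replicates 1, 2 and 3, and 4, 5 and 7 calls without RAG-2-deficient replicates 1, 2 and 3. The lower calls were Ndufa3 and Cox6a1 at 2 sets each, Ndufa12 set 1455806_x_at and Ndufb7. Ndufb7, an accessory subunit of complex I on the intermembrane side, read 7.54, 7.44 and 7.83 in IkB-DN, 8.60 and 8.49 in Artemis- and ATM-deficient, 8.35, 8.56 and 7.49 in Artemis-deficient, 8.38, 8.36 and 8.48 in wild type and 8.54, 8.31 and 8.5 in RAG-2-deficient lines at set 1448331_at. Artemis-deficient replicate 3 was as low as the IkB-DN samples, and set 1416417_a_at gave the same picture with 8.34 in that sample and 8.21 to 8.59 in the IkB-DN lines. The difference from RAG-2-deficient lines was -0.85 ± 0.22 (limma adjusted p = 0.0348), and it missed the threshold in all 6 cases when a sample was left out. Ndufb2, an accessory subunit called only by the F test, read 7.52, 7.59 and 7.73 in IkB-DN lines, against 8.0, 8.37 and 8.17 in RAG-2-deficient lines at set 1448483_a_at, a difference of -0.57 ± 0.19 that was not called (limma adjusted p = 0.0745).

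The 3 higher calls were at Cox4i1, Cox7a2l and Uqcr10. Cox4i1, the widely expressed form of complex IV subunit 4, read 11.73, 11.60 and 11.59 in IkB-DN lines, against 11.31, 11.06 and 11.36 in RAG-2-deficient lines, a rise of 0.40 ± 0.10 (1.32-fold, limma adjusted p = 0.0291). Cox7a2l, which helps join complexes III and IV in supercomplexes, rose by 0.56 ± 0.15 at set 1432264_x_at (limma adjusted p = 0.0378), with 12.11, 11.85 and 11.96 in IkB-DN and 11.31, 11.35 and 11.59 in RAG-2-deficient lines. Its other sets were higher by 0.37 and 0.48 without overlap and without a call (limma adjusted p = 0.0619 and 0.058). The Cox4i1 and Cox7a2l calls were each lost in 5 of 6 cases when 1 sample was left out. For Uqcr10, a small subunit of complex III, set 1434340_at read 6.65, 6.30 and 6.15 in IkB-DN and 4.66, 5.38 and 5.56 in RAG-2-deficient lines and rose by 1.17 ± 0.25 (limma adjusted p = 0.0128), whereas set 1424364_a_at read 7.36, 7.13 and 7.45 in IkB-DN and 8.0, 7.78 and 7.76 in RAG-2-deficient lines and differed by -0.53 ± 0.16 (limma adjusted p = 0.0502). The remaining set, 1434341_x_at, overlapped between these groups. The sets of Uqcr10 thus moved in opposite directions, and no direction was assigned to the gene.

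Agreement between probe sets of a gene was otherwise common but not complete. Among 32 genes with more than 1 tested set in the lines, all sets had the same sign for 24 genes between IkB-DN and RAG-2-deficient lines and for 27 between IkB-DN and Artemis-deficient lines. Where a set was called and the signs differed, the genes were Uqcr10, Ndufa12 and Ndufa3.

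The remaining comparisons of lines, which include the one between Artemis-deficient and RAG-2-deficient lines that asks about unrepaired RAG breaks, called no member. Between Artemis-deficient and RAG-2-deficient lines limma called 0 of 110 members, against 1.15% of all 21744 probe sets, and 14 members (12.7%) had an unadjusted p below 0.05, against 13.7% of all. The median difference was 0.06, against -0.01 for all, and a member's standard error was 0.13 at the median. The smallest p was at Ndufs5, an accessory subunit on the intermembrane side of complex I, which read 8.92, 8.79 and 9.04 in IkB-DN, 8.41 and 8.40 in Artemis- and ATM-deficient, 8.70, 8.31 and 8.51 in Artemis-deficient, 8.70, 8.70 and 9.40 in wild type and 9.12, 9.40 and 9.39 in RAG-2-deficient lines. Every RAG-2-deficient sample was above every Artemis-deficient sample, and wild type replicate 3 stood with the RAG-2-deficient samples. The difference between Artemis-deficient and RAG-2-deficient lines was -0.79 ± 0.18 (limma adjusted p = 0.0608), and that between Artemis- and ATM-deficient and RAG-2-deficient lines was -0.90 ± 0.20 (limma adjusted p = 0.0747). A probe set shared by Ndufs5 and its pseudogene Ndufs5-ps differed by -0.55 ± 0.15 and -0.61 ± 0.17 in the same comparisons, again without a call. Next by p were the Ndufa3 sets, Ndufa12 set 1418814_s_at (0.55 ± 0.15, limma adjusted p = 0.117), Uqcr10 set 1434340_at (0.88 ± 0.25, limma adjusted p = 0.123) and Ndufs8 set 1455283_x_at (0.32 ± 0.11, limma adjusted p = 0.211).

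Between wild type and RAG-2-deficient lines limma called 0 of 110 members (all probe sets, 0.791%), and 5 members (4.55%) had an unadjusted p below 0.05, against 12.4% of all. The median difference was 0.07, against 0.00 for all. Those 5 were Uqcr10 set 1434340_at (0.73 ± 0.25), Ndufb1 (0.60 ± 0.23), Ndufa7 (0.31 ± 0.12), Ndufv1 (0.28 ± 0.11), which carries the flavin of complex I, and Cox6b1 (0.21 ± 0.09). Ndufb1 overlapped between the groups and the other 4 did not. In all, 8 members (7.27%) were higher without overlap, against 7.51% of all probe sets.

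Between Artemis-deficient and wild type lines limma again called 0 of 110 (all probe sets, 0.505%), with 13 unadjusted p-values below 0.05 (11.8%, against 12.3% of all) and a median of 0.00. Cox6a1 set 1417418_s_at had the smallest p (-0.59 ± 0.18, limma adjusted p = 0.193), followed by Ndufa3 sets 1428464_at and 1452790_x_at, Ndufa12, Uqcrh, the acidic hinge subunit of complex III (0.27 ± 0.10, limma adjusted p = 0.302), and Ndufs8 set 1434213_x_at (0.28 ± 0.11, limma adjusted p = 0.306).

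Loss of ATM in addition to Artemis was addressed by the Artemis- and ATM-deficient against the Artemis-deficient lines, where limma called 0 of 110 (all probe sets, 0.281%) and 9 members (8.18%) had an unadjusted p below 0.05, against 9.69% of all. The median difference was 0.03, against 0.01 for all. Ndufs7, the core subunit with the last iron-sulfur cluster before ubiquinone, had the smallest p. At set 1451312_at it read 8.73, 8.55 and 8.64 in IkB-DN, 9.13 and 9.39 in Artemis- and ATM-deficient, 8.88, 8.88 and 8.83 in Artemis-deficient, 8.99, 9.06 and 8.95 in wild type and 8.87, 9.02 and 8.83 in RAG-2-deficient lines. The Artemis- and ATM-deficient samples were the highest and the IkB-DN samples the lowest, and the difference between Artemis- and ATM-deficient and Artemis-deficient lines was 0.40 ± 0.12 (limma adjusted p = 0.238). Ndufa12 set 1418814_s_at (0.55 ± 0.17), Uqcr11 (0.56 ± 0.19), Ndufa4 (0.61 ± 0.26) and Cox5a set 1448153_at (0.25 ± 0.10) were also higher there and Cox7c set 1459884_at (-0.58 ± 0.24) lower, all without overlap and with limma adjusted p-values of 0.269 to 0.46. Lack of overlap was at the background rate. Of the members 13.6% were higher and 11.8% lower without overlap, against 13.2% and 12.8% of all probe sets. Against the RAG-2-deficient lines 83 of 110 members were positive in the Artemis- and ATM-deficient lines, with a median of 0.09 (all probe sets, 0.00). The comparisons with the RAG-2-deficient lines share those 3 samples, and those with the Artemis-deficient lines share theirs.

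Ndufa1 and Ndufb11, complex I subunits encoded on the X chromosome, were not called in any comparison. In the F test of limma Ndufa1 had an unadjusted p of 0.0305 (adjusted p = 0.138). Ndufa1 read 9.94, 9.69 and 9.85 in IkB-DN, 10.46 and 10.07 in Artemis- and ATM-deficient, 10.11, 10.19 and 10.16 in Artemis-deficient, 10.32, 10.38 and 10.12 in wild type and 10.37, 10.04 and 10.09 in RAG-2-deficient lines, with the IkB-DN samples lowest and no call. Ndufb11 set 1416056_a_at stayed between 10.85 and 11.25 in all 14 samples. Xist, the RNA that coats the inactive X chromosome, was 11.41 to 12.09 in the wild type, the Artemis- and ATM-deficient and 1 of 3 Artemis-deficient samples and 4.09 to 5.64 in the other 8, so the lines differed in this respect in a way that follows the groups in part. Ndufa1 was 10.07 to 10.46 in the samples with high Xist and 9.69 to 10.37 in those with low Xist.

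**Figure D4:**
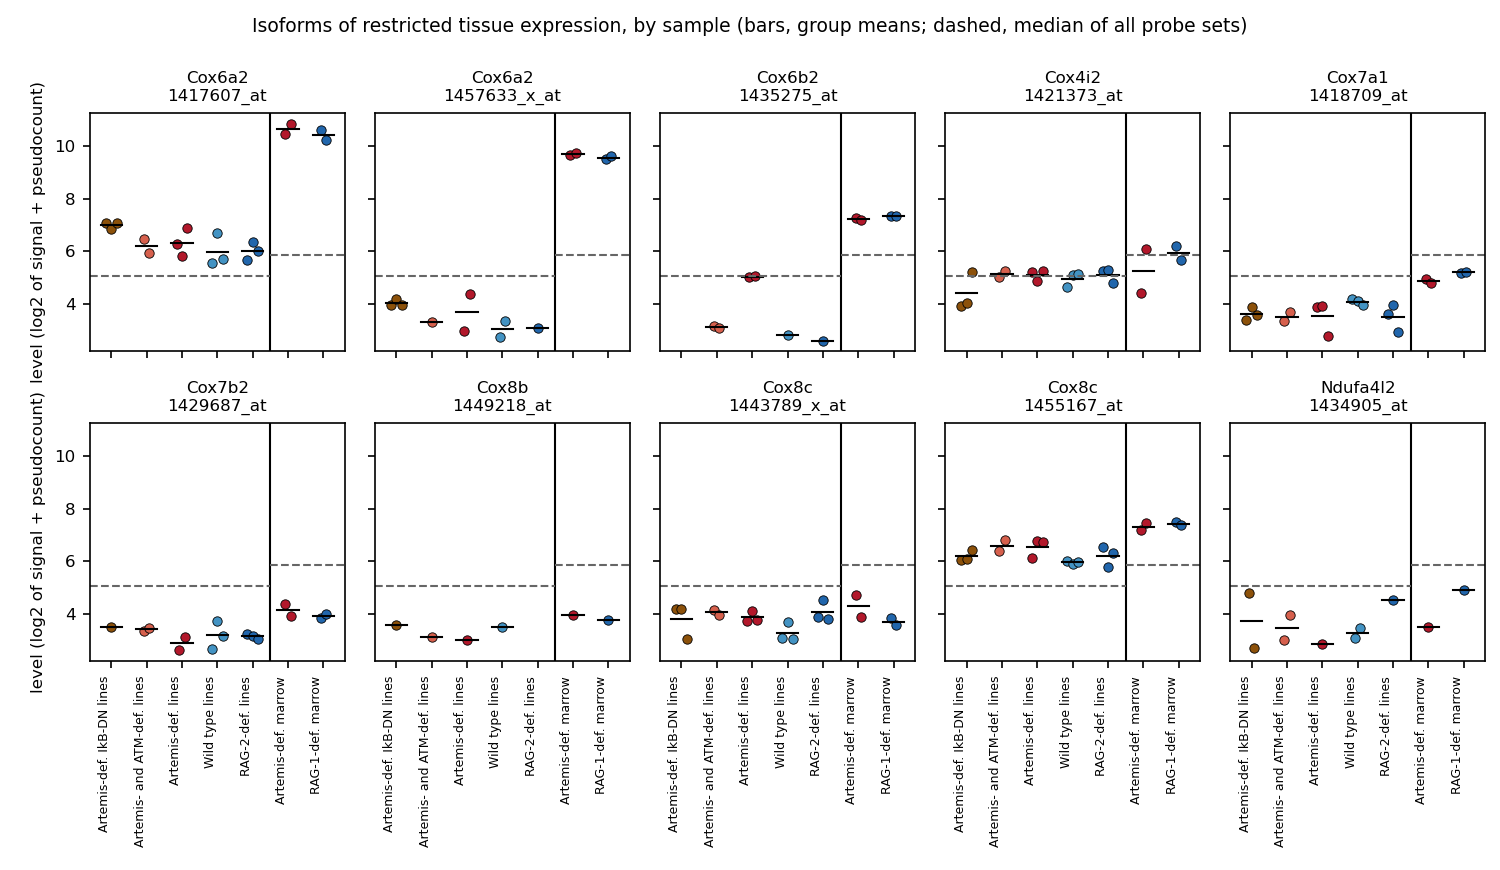
Levels (log2 of signal plus pseudocount) of 10 probe sets for isoforms of restricted tissue expression, by group, with a point for each sample, a bar at each group mean and a dashed line at the median of all probe sets. The lines and the marrow, parted by a vertical line, are scaled separately, and Cox6a2 and Cox6b2 stand above the median in all 4 marrow samples. In the lines Cox6a2 set 1417607_at and Cox8c set 1455167_at also stand above it.

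Most isoforms with known restricted expression were near or below an array's median signal in the lines, while Cox6a2 and Cox8c each had 1 probe set above it. Cox7a1 and Cox8b, the heart and skeletal muscle forms, Cox7b2, a testis form, and Ndufa4l2 did not pass the filter on low signals in either set of samples. Cox4i2, the lung form of subunit 4, passed it in both sets near the median signal, with levels of 3.91 to 5.27 in lines and 4.43 to 6.19 in marrow. Cox8c, a testis form, had 1 set kept in both (5.79 to 6.79 in the lines) and 1 below the filter in both. Cox6a2, the heart and skeletal muscle form of subunit 6a, was kept at set 1417607_at in the lines, with 7.07, 6.85 and 7.07 in IkB-DN, 6.45 and 5.94 in Artemis- and ATM-deficient, 6.28, 5.83 and 6.88 in Artemis-deficient, 5.55, 6.70 and 5.70 in wild type and 5.66, 6.37 and 6.00 in RAG-2-deficient lines. Its other set, 1457633_x_at, was below the filter there or empty, so the probe sets disagreed on whether the transcript was measured in the lines.

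In the marrow both Cox6a2 sets were well above the median signal. Set 1417607_at read 10.46 and 10.85 in Artemis-deficient and 10.60 and 10.23 in RAG-1-deficient marrow, and 1457633_x_at read 9.66 and 9.76 in Artemis-deficient and 9.51 and 9.63 in RAG-1-deficient marrow. The differences were 0.24 ± 0.20 and 0.14 ± 0.16, neither called (limma adjusted p = 0.622 and 0.726). Cox6b2, the testis form of subunit 6b, read 7.28 and 7.18 in Artemis-deficient and 7.36 and 7.34 in RAG-1-deficient marrow (-0.12 ± 0.21, limma adjusted p = 0.821). None of the 4 muscle and heart markers was kept in the marrow. Outside muscle, Cox6a2 is also known in mouse plasmacytoid dendritic cells, and all 3 dendritic markers were kept, with summed signals of 2860 to 4010 in Artemis-deficient and 728 to 1140 in RAG-1-deficient marrow. Siglech, a marker of plasmacytoid dendritic cells, was 2.58 ± 0.38 higher in Artemis-deficient marrow (limma adjusted p = 0.0268). The part of other cells in the Cox6a2 signal was not tested, and in bulk samples fewer cells of a type and less RNA per cell cannot be told apart.

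Between Artemis-deficient and RAG-1-deficient marrow limma called 0 of 107 members, against 2.51% of all 19473 probe sets, and 1 member (0.935%) had an unadjusted p below 0.05, against 16.8% of all. That member was Ndufb2 set 1416834_x_at, at 8.49 and 8.72 in Artemis-deficient and 8.98 and 9.20 in RAG-1-deficient marrow (-0.48 ± 0.19, limma adjusted p = 0.253), while Ndufb2 set 1448483_a_at overlapped between the groups. The members' median difference was 0.03, against -0.01 for all, and changed sign to -0.01 with quantile normalization or median centring, where that for all was -0.04. The members' differences lay between -0.67 and 0.33 with a median standard error of 0.17. Next by p were Ndufb1 (-0.35 ± 0.17), Uqcr10 set 1434340_at (-0.45 ± 0.24), Ndufv3 (0.33 ± 0.18), Ndufs8 set 1423908_at (-0.29 ± 0.17) and Ndufb6 (-0.30 ± 0.19). With 2 mice a group, differences of this size could not be told from the spread between mice. The same samples differed in their markers: the 8 pre-B markers summed to 10900 to 16000 in Artemis-deficient and 25700 to 30200 in RAG-1-deficient marrow, and the 7 neutrophil and monocyte markers to 45700 to 52000 in Artemis-deficient and 27500 to 39500 in RAG-1-deficient marrow. The part of this makeup in the members' values was not tested.

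Other genes of mitochondrial energy supply, each read by its brightest probe set, were compared from lists of known function. In the lines calls were found only in the comparisons with IkB-DN lines, apart from Pfkm, a glycolytic enzyme. Cycs, the cytochrome c that carries electrons between complexes III and IV, fell by 0.95 in IkB-DN lines relative to RAG-2-deficient lines (SE 0.11, limma adjusted p = 0.000864) and by 0.73 relative to Artemis-deficient lines (SE 0.11, limma adjusted p = 0.00903), whereas Cyc1, the cytochrome of complex III, differed by -0.04 and -0.13. Of 40 tested assembly factors of the complexes 5 were called between IkB-DN and RAG-2-deficient lines, where 9.85% of all probe sets were. Uqcc3 (0.70 ± 0.11), Sco2 (0.93 ± 0.24) and Ndufaf2 (0.56 ± 0.15) were higher and Ecsit (-1.57 ± 0.27) and Uqcc2 (-0.75 ± 0.20) lower, and the median over the list was -0.02. Between IkB-DN and Artemis-deficient lines Uqcc3 alone of the 40 was called, higher by 0.54 ± 0.11 (limma adjusted p = 0.0299), where 2.02% of all probe sets were called. None of 4 complex II genes, 19 ATP synthase genes or 12 genes of the citric acid cycle was called in these comparisons, with 1, 9 and 2 unadjusted p-values below 0.05 in limma against RAG-2-deficient lines (26.2% of all probe sets) and 1, 2 and 1 against Artemis-deficient lines (18.7% of all). Of 24 genes of mitochondrial transcription and biogenesis Polg (-0.45 ± 0.11) and Mterf3 (-0.52 ± 0.14) were called, both lower in IkB-DN than in RAG-2-deficient lines. Pfkm was 1.61 ± 0.39 higher in IkB-DN than in RAG-2-deficient lines (limma adjusted p = 0.0242) and 2.04 ± 0.39 higher in wild type than in RAG-2-deficient lines (limma adjusted p = 0.0393). In the marrow limma called none of these genes. Unadjusted p-values below 0.05 were found for 3 of 24 biogenesis, 2 of 12 citric acid cycle and 6 of 17 glycolysis genes. None of the others had one, and the share over all probe sets was 16.8%. All 17 tested glycolysis genes were positive there, with a median of 0.38 against -0.01 over all probe sets, whereas the median was 0.03 over the respiratory chain members. Cell type markers differed in the same samples, with medians of -1.11 for pre-B and 0.51 for neutrophil and monocyte markers. The part of this makeup in the glycolysis values was not tested.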

How the data were processed

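RNA of 20 mouse samples had been hybridised to Affymetrix mouse whole-genome arrays and read with the GeneChip Operating Software, per the labels. The authors deposited log10 signals for 44200 probe sets. The base is inferred from the values. The sources used here do not say how probes were summarised, background subtracted and arrays scaled. Of the table's cells 14.7% were empty and were left empty. Arrays have no read depth, and their number limits the precision.

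Signals were recovered from the log10 values, increased by a pseudocount (6 in the lines and 11 in the marrow, the 25th percentile of signals) and taken to log2, so folds of dim probe sets are understated. A probe set was kept where at least 2 samples reached the median of their own array (21921 in the lines, 19520 in the marrow), and a comparison was tested where each group had at least 2 values. Both arrays of an Artemis- and ATM-deficient line were averaged, leaving 14 line samples and 4 marrow samples. Groups were fitted with limma 3.58.1 in R 4.3.3 (lmFit, eBayes with an intensity trend), the 5 groups of lines together (9 residual and 3.06 prior degrees of freedom) and the marrow alone (2 and 5.40). Tests are two-sided, p-values were adjusted by Benjamini-Hochberg over all probe sets of a comparison, called means an adjusted p below 0.05, and ± in a difference is its standard error (SE). Overlap was read from the sample values. The fit was tested on simulated data. Probe sets were named from GEO's platform annotation, in which 34294 name 1 gene, 916 several and 8990 none.

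Members and gene lists were chosen with earlier results of these data known. Named are the called members of each comparison, the smallest p-values where fewer than 6 were called, the restricted isoforms, the X-linked members, genes whose probe sets differ in sign beside a call, and called genes of the other lists. The planned naming of the highest and lowest members by level was not applied, since levels of different probes are not comparable, and single-sample values of Ndufb2 and Ndufb7 at further sets were added after the values were seen. Alternatives were another pseudocount, filter, scaling or spread, 1 probe set per gene, 1 array per line, fewer groups in the fit and each replicate left out. Figures were drawn with matplotlib 3.10.9.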

Additional observations from a re-analysis of the deposited data

Results flagged for a closer look

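Of 104 member probe sets measured in both the lines and the marrow, 7 differed in opposite directions without overlap in either set. The comparison was Artemis-deficient against RAG-deficient samples, and the share was 6.73%, against 3.64% of all 17577 probe sets tested in both. The control is RAG-2-deficient in the lines and RAG-1-deficient in the marrow, no value of these 7 was called in either set by limma, and the difference between the sets was not tested. In the order lines and then marrow, the log2 differences were 0.55 ± 0.15 and -0.12 ± 0.16 at Ndufa12 set 1418814_s_at and 0.60 ± 0.23 and -0.35 ± 0.17 at Ndufb1. They were -0.79 ± 0.18 and 0.12 ± 0.17 at Ndufs5. At Ndufs8 they were 0.24 ± 0.12 and -0.29 ± 0.17 for set 1423908_at and 0.32 ± 0.11 and -0.14 ± 0.15 for set 1455283_x_at. Uqcr10 set 1434340_at gave 0.88 ± 0.25 and -0.45 ± 0.24 and Uqcrb set 1455997_a_at 0.31 ± 0.17 and -0.18 ± 0.15. The marrow differences at Ndufa12, Ndufs5 and Ndufs8 set 1455283_x_at were smaller than their SE.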

How the results depend on the processing

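No difference of a named member reversed its direction under the alternatives run. The members' median did change sign in the marrow, where it was 0.03 with all samples, -0.01 with quantile normalization or median centring and -0.04 to 0.10 as a mouse was left out. Over all probe sets the marrow median shifted as well, from -0.01 to -0.04 under both of these scalings. Between IkB-DN and RAG-2-deficient lines the members' median was -0.06 and stayed negative, at -0.15 to -0.01 with a sample left out. Leaving out a replicate in turn gave 1 to 15 calls in the F test (10 with all samples), 3 to 7 between IkB-DN and RAG-2-deficient lines (9), 0 to 12 between IkB-DN and Artemis-deficient lines (2) and 0 to 1 between Artemis- and ATM-deficient and RAG-2-deficient lines (1). With 1 probe set per gene in the fit these counts were 5 in the F test, 5 between IkB-DN and RAG-2-deficient lines, 3 between IkB-DN and Artemis-deficient lines and 0 between Artemis- and ATM-deficient and RAG-2-deficient lines. Without the IkB-DN lines in the fit, 0 members were called by the F test and 0 between Artemis- and ATM-deficient and RAG-2-deficient lines, where a fit of only those 2 groups also called 0. A fit of only the groups compared called 17 members between IkB-DN and RAG-2-deficient lines and 4 between IkB-DN and Artemis-deficient lines, where the first technical arrays alone or no filter on level left 1. Fewer samples or features enter several of these fits, and otherwise the cause was not tested. The 5 comparisons with 0 calls stayed at 0 throughout. Of 1142 values for single members and medians, 1014 counted as unchanged, 116 lost a call, 9 gained one and 3 medians moved. Unchanged meant the same direction and side of the threshold for a difference, and the same side for an F value. For a median it meant a shift smaller than the spread of sample medians within groups, whatever its sign. No paired analysis was possible because replicate numbers follow accession order and the titles pair no samples across groups.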
